A study of Homo sapiens with 12 samples.

Results

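Neurotensin is a small secreted peptide cut from the precursor encoded by NTS, and NTSR1 encodes its high-affinity G protein-coupled receptor, which signals through phospholipase C, protein kinase C and ERK. SORT1 encodes sortilin, a sorting receptor that also binds neurotensin, and NPY1R encodes a G protein-coupled receptor of neuropeptide Y that lowers cyclic AMP. In lung cancer NTS and NTSR1 are known as a possible autocrine loop, in which a cell makes both the peptide and its receptor. These 4 genes were chosen by name after the low signals of NTS and NPY1R in A3R against A0R had been seen, so that comparison describes them and is not tested here. Of the 4, the platform annotation names a single probe set for each of 3, namely NTS (probe set 7957458), NTSR1 (8063942) and NPY1R (8103494), all 3 among the 16939 genes tested. SORT1 was not analysed here, since no named probe set matched it.

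The 12 arrays come from A549, a line of lung adenocarcinoma cells, and HTB56, a lung cancer line also called Calu-6. A0R and H0R are the cells before selection, at 0 rounds, and A3R and H3R the cells recovered after 3 rounds of passage through mouse lungs, where cells injected into a vein had formed nodules. Each group has 3 arrays, and all are labelled untreated with 5-azacytidine, a drug that blocks DNA methylation. The sources used here do not say whether selected lines were clones, whether nodules or mice were pooled, or whether replicates were separate cultures, so p-values measure only the spread between these arrays. Values are log2 RMA signals, a scale on which 1 unit is a doubling. The 20th percentile of each array, below which probe sets were taken as dim, lay at 3.48 on average and is called the dim level here.

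The epithelial keratin genes KRT8 and KRT18 were bright in every group. CDH1, another epithelial marker, averaged 9.53 in A0R and 4.55 in H0R. Of the 7 epithelial markers tested, 1 rose and 1 fell after selection in each line: KRT19 rose by 1.14 and CDH1 fell by 0.85 in A549, and EPCAM rose by 1.02 and KRT7 fell by 0.91 in HTB56. That was 28.6% of the list in each line, where 1.75% of all genes were called in A549 and 19.5% in HTB56. The T cell marker CD3E stayed between 4.04 and 4.19 in group mean. A0R replicate 2 stood apart: for 10 genes above 9 on all HTB56 arrays and with an A549 median below 5, it lay 1.53 above that median, against -0.32 to 0.18 on the other A549 arrays. NTSR1, which is bright in HTB56, read 4.76 on that array, between the other A0R arrays.

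The bases before the start of each of the 3 genes are shown as a description only. NTS and NPY1R shared a pattern over the arrays that NTSR1 did not, but both were listed for their low A3R signals. Each line is the 250 bases upstream of the start site, 5′ to 3′ on the strand of the gene, from RefSeq on GRCh38.p14: chr12:85874045-85874294 on the plus strand for NTS, chr4:163332597-163332846 on the minus strand for NPY1R and chr20:62708586-62708835 on the plus strand for NTSR1. Capitals mark matches on either strand to the short cAMP element TGACG or the GC box GGGCGG.
NTS: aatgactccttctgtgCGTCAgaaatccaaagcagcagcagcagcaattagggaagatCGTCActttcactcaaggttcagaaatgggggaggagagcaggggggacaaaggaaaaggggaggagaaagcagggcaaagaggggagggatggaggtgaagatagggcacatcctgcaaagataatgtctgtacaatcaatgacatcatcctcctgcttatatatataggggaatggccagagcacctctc
NPY1R: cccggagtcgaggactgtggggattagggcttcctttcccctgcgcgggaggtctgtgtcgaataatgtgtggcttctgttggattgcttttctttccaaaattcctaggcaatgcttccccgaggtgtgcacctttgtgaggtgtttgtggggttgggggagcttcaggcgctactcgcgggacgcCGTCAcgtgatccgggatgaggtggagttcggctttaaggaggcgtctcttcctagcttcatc
NTSR1: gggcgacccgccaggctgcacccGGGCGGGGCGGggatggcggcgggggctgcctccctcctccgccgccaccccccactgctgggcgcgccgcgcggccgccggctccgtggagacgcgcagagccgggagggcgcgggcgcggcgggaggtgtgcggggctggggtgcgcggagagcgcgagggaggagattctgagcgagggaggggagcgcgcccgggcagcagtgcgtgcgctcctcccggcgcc

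The NTS sequence held 2 CpG sites in 250 bases, the NPY1R sequence 15 and the NTSR1 sequence 38, a number reached by 3.28% of 35116 RefSeq promoters, whose median was 11. GC content was 49.2% upstream of NTS, 56.4% upstream of NPY1R and 82.0% upstream of NTSR1. The short cAMP element was found at 234 and 192 bases before the NTS start and at 63 bases before the NPY1R start, counted to the first base of the match, and 21.2% of all promoters hold 1 or more. NTSR1 held 2 GC boxes that share a base, at 227 and 222 bases, a motif found in 42.6% of promoters. The full cAMP element TGACGTCA, which contains the short one (1.65% of promoters), the AP-1 site TGANTCA (6.57%) and the TATA box TATAAA (10.7%) had no match in these 3 windows. Only these strings were searched, with N as any base. Looser forms, such as the stretch tatatata near the NTS start, were not counted, so a lack of such sites is not shown. These matches describe the letters, and methylation and binding were not measured on these arrays.

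NTS was bright in unselected A549 cells alone. It read 8.16, 8.04 and 9.08 on the A0R arrays, 4.88, 3.61 and 4.19 on the A3R arrays, 3.81, 3.51 and 3.83 in H0R, and 3.89, 3.48 and 3.93 in H3R. No A3R array came within 3.16 of the dimmest A0R array, and the A3R values spread more widely (8.43 ± 0.57 (SD, n = 3) in A0R, 4.23 ± 0.63 in A3R). The difference of the means, A3R minus A0R, was -4.20 (SE 0.29), 18.4-fold on the linear scale, and by replicate number the differences were -3.28, -4.43 and -4.88. The probe set stood on average at the 81.3 percentile of all probe sets in A0R, the 31.1 in A3R, the 24.2 in H0R and the 24.4 in H3R. A3R replicate 2, at 3.61, therefore lay among the HTB56 arrays, whereas A3R replicates 1 and 3, at 4.88 and 4.19, lay above all 6 of them. In such bulk RNA, fewer cells that express a gene and less of its RNA per cell cannot be told apart.

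NPY1R was likewise higher on all A0R than on all A3R arrays, at lower signals. It read 5.23, 5.48 and 5.93 in A0R and 3.60, 3.46 and 3.68 in A3R, with a gap of 1.55 between the groups. The difference of the means was -1.97 (SE 0.16), with no fold given because 1 of the 3 A3R arrays lay below the 20th percentile, and by replicate number the differences were -1.63, -2.02 and -2.25. In HTB56 it read 3.66, 3.62 and 4.03 in H0R and 3.67, 3.43 and 3.51 in H3R. All groups but A0R thus overlapped each other near the dim level. For both genes replicate 3 was the brightest A0R array and gave the widest difference.

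NTSR1 showed another pattern, bright in HTB56 and dimmer in A549. It read 8.10, 7.95 and 7.95 in H0R, 6.77, 6.86 and 6.65 in H3R, 4.67, 4.76 and 5.10 in A0R, and 4.88, 5.04 and 5.10 in A3R. The 6 HTB56 arrays lay above the 6 A549 arrays, and H0R lay above H3R with a gap of 1.08. A0R (4.84 ± 0.23 (SD, n = 3)) and A3R (5.00 ± 0.12) overlapped, with a mean difference of 0.16 (SE 0.12). In A549 the probe set stood at the 39.8 and 41.9 percentiles, above the dim level, and in HTB56 at the 76.4 and 63.8 percentiles.

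**Figure D1:**
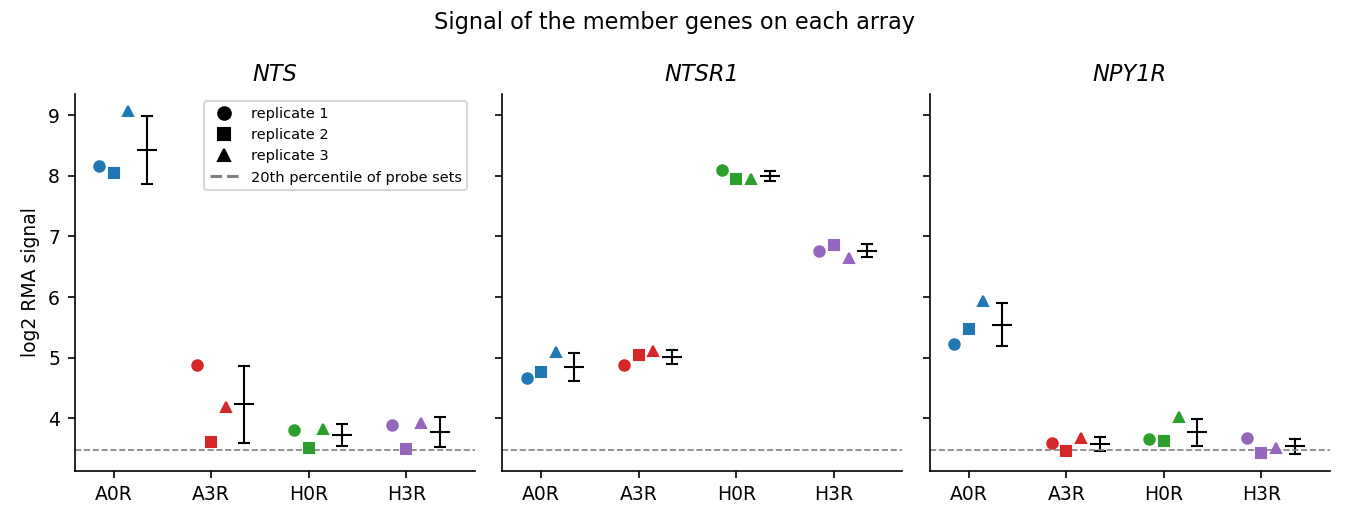
Log2 RMA signal (vertical axis) of NTS, NTSR1 and NPY1R on each of the 12 arrays, by group (horizontal axis); symbols give the replicate number, bars the group mean ± SD (n = 3), and the dashed line the mean 20th percentile of 3.48. NTS and NPY1R are high in A0R alone, and NTSR1 is high in H0R, intermediate in H3R and low in both A549 groups.

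The comparison of H3R with H0R asks whether the same genes differ after selection in the other line, and it is the test made for the members. The members were chosen with earlier results of these data known, so the p-values of this comparison may not be free of that choice. NTSR1 fell in selected HTB56 cells, from 8.0 ± 0.09 (SD, n = 3) to 6.76 ± 0.11. The log2 change was -1.24 (SE 0.12, 95% interval -1.50 to -0.98, limma adjusted p = 4.82e-06), or 2.36-fold, and it was -1.33, -1.09 and -1.29 by replicate number. NTS was not called: its change was 0.05 (SE 0.29, 95% interval -0.57 to 0.67, limma adjusted p = 0.943). NPY1R was not called either, at -0.23 (SE 0.16, 95% interval -0.58 to 0.11, limma adjusted p = 0.402), and its H0R and H3R arrays overlapped. Thus 1 of the 3 members was called lower and 0 higher in HTB56 by limma, and 1 had an unadjusted p below 0.05. Of all genes tested 10.9% were called lower and 8.57% higher, and NTSR1 ranked 202 by most negative change. NTS and NPY1R were near the dim level in both HTB56 groups.

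Most neuroendocrine markers tested fell in HTB56, as NTSR1 did. Of 11 tested, 7 fell (63.6%, against 10.9% of all genes) and 0 rose, with a median change of -1.70. The cell markers were chosen with earlier results of these data known, so their shares are a description only. Not called were ENO2 (0.04), INSM1 (0.09), UCHL1 (-0.13) and DDC (-0.23). UCHL1, DDC and ENO2 averaged 11.67, 8.90 and 8.28 in A0R and 6.41, 4.89 and 7.41 in H0R, the reverse of NTSR1. The mean level of the 11 markers ran from 7.82 to 7.93 over the H0R arrays and from 5.82 to 5.93 over the H3R arrays. CHGA, the chromogranin A gene, averaged 7.88 in H0R and 4.80 in H3R. In A549, where their mean level ran from 6.47 to 6.49 in A0R and from 6.36 to 6.37 in A3R, 2 fell: SNAP25, a gene of vesicle fusion, by 0.54 and DDC, a gene of amine synthesis, by 0.93. These were 18.2% of the list, where 0.809% of all genes were called lower in A549. Of 6 fibroblast markers 4 rose in HTB56, where 8.57% of all genes were called higher. Their mean level was 5.82 to 6.12 in H0R and 6.69 to 6.88 in H3R. Limma called 0 of them in A549, with 1 at an unadjusted p below 0.05. Of 7 endothelial markers limma called 0 in either line (0 and 1 at an unadjusted p below 0.05), and of 6 leukocyte markers CD68 alone was called, 0.65 higher in H3R. The part of these cell markers in the NTSR1 fall was not tested.

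Between unselected lines the genes ran in opposite directions, given here as a description. The difference of the means, H0R minus A0R, was -4.71 for NTS, -1.78 for NPY1R and 3.16 for NTSR1. After selection the difference, H3R minus A3R, was -0.46 for NTS, -0.04 for NPY1R and 1.76 for NTSR1. No group had both NTS and NTSR1 at its highest signal: A0R was brightest for NTS, H0R was brightest for NTSR1, and NTS was near the dim level on all HTB56 arrays, where its order has no meaning. Over the 12 arrays the signals of NTS and NPY1R correlated at r = 0.97, those of NTS and NTSR1 at -0.64 and those of NPY1R and NTSR1 at -0.49. NTS and NPY1R were both listed for low signals in A3R against A0R, so a high r between them was favoured by that choice. These coefficients rest on 4 groups and serve only as a measure of likeness.

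By that measure LIN7A (r = 0.98), F5 (0.97), SLC17A3 (0.97), SCN9A (0.97) and NPY1R were the genes most like NTS. LIN7A, a polarity scaffold gene, averaged 6.67 in A0R and 4.02, 4.0 and 3.69 in A3R, H0R and H3R. The genes most like NPY1R were LIN7A (0.98), EPHA7 (0.98), NTS, DOCK8 (0.97) and F5 (0.96). EPHA7, an ephrin receptor gene, averaged 5.16 in A0R against 3.67 in A3R. The genes most like NTSR1 were CDK14 (0.997), CCDC50 (0.99), ZBED10P (0.99), B3GALT1 (0.99) and VPS36 (0.99). CDK14, a cyclin-dependent kinase gene, averaged 9.60 in H0R and 7.44 in H3R and stayed at 4.11 and 4.06 in the A549 groups.

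The members lie on different chromosomes, NTS on 12, NTSR1 on 20 and NPY1R on 4. Most genes beside them were not called in the line where the member differed after selection. NTS and NPY1R were listed for their low A3R signals, so their place below any neighbours in A549 follows from that choice. Of the 3 nearest tested genes on each side of NTS, limma called 0 of 6 in A549, where 0.945% of all genes were called higher and 0.809% lower, and 1 had an unadjusted p below 0.05, RASSF9, at -0.36 (limma adjusted p = 0.154). In HTB56, where 19.5% of all genes were called, LRRIQ1 fell by 0.54 and CEP290 rose by 0.62 (limma adjusted p = 0.00828 and 0.0104). ALX1, a homeobox gene 2 places from NTS, shared its line difference, averaging 8.42 in A0R and 4.17 in H0R, but was 8.15 in A3R. RASSF9, next to NTS, shared it too, at 5.41 in A0R, 5.05 in A3R and 3.39 in H0R. Beside NTSR1 the transporter gene SLCO4A1 shared its pattern, averaging 6.72, 6.82, 9.33 and 8.74 in A0R, A3R, H0R and H3R. SLCO4A1 fell in HTB56 by 0.59 (SE 0.12, limma adjusted p = 0.00373), and the other 5 neighbours were not called there. With 19.5% of all genes called in HTB56, 1 of 6 says little about this place. Beside NPY1R the adjacent gene NPY5R, a further receptor of neuropeptide Y, read 3.50, 3.53 and 4.26 in A0R and 2.99, 2.67 and 3.51 in A3R. It differed by -0.71 (SE 0.20, limma adjusted p = 0.126) and was not called. It was called with the replicate number as a block (limma adjusted p = 0.043), with array weights (0.0357) and without A3R replicate 3 (0.0243). A3R replicates 1 and 2 and all HTB56 arrays lay below the dim level for NPY5R. FSTL5, on the other side of NPY1R, fell in HTB56 by 3.63 (SE 0.13, limma adjusted p = 3.15e-10).

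**Figure D2:**
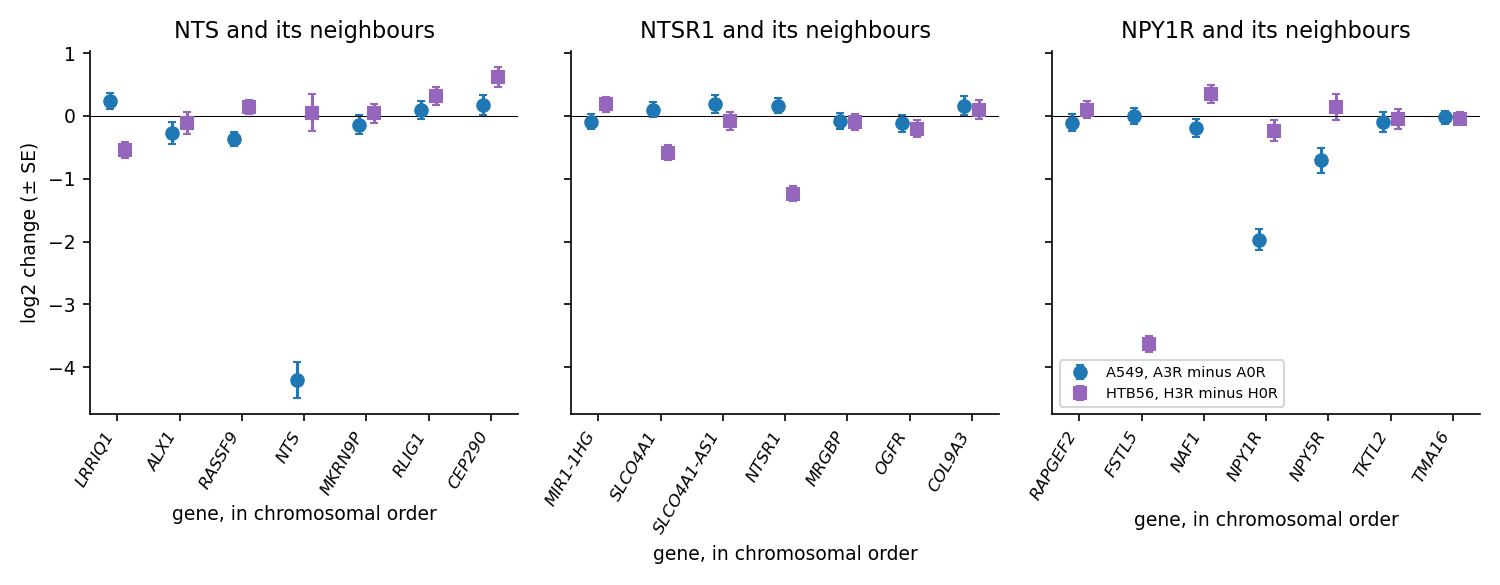
Log2 change after selection (vertical axis, ± SE from the fit) of each member and its 3 nearest tested genes on either side in RefSeq order (horizontal axis, not to scale), in A549 (circles) and HTB56 (squares). NTSR1 at -1.24 stands below its neighbours in HTB56. NTS at -4.20 and NPY1R at -1.97 stand below theirs in A549, as follows from their choice by that comparison.

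The partners of the members were taken from lists of the pathway, members left out. NTSR2, the second neurotensin receptor gene, averaged 5.26, 5.54, 5.30 and 5.34 in A0R, A3R, H0R and H3R, and NPY, the neuropeptide Y precursor gene, 5.29, 5.32, 5.15 and 5.44. Neither was called after selection in either line (limma adjusted p = 0.388 and 0.985 in A549, 0.882 and 0.106 in HTB56), except that NPY was called in HTB56 with the replicate number as a block, at 0.28 (limma adjusted p = 0.0421). SORL1, a sorting receptor gene of the sortilin family, averaged 6.06, 6.43, 7.19 and 7.12 in the same order and was not called after selection either. QPCT encodes glutaminyl cyclase, the enzyme that closes the first residue of neurotensin, and rose in HTB56 by 0.50 (SE 0.10, limma adjusted p = 0.00293). In A549 it was 0.44 higher (SE 0.10, limma adjusted p = 0.0449), a call lost under 14 of 21 alternatives, among them the omission of any A549 array but A0R replicate 3 and of any HTB56 array. CPE, a carboxypeptidase gene of prohormone processing, averaged 8.29 in H0R and 5.2 in A0R and was not called in either selected line, and no named probe set matched PCSK1 or PCSK2.

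Of 62 genes of other peptide receptors tested, 3 fell and 1 rose in HTB56, 6.45% of the list against 19.5% of all genes (7 with array weights), with a median change of 0.05 against 0.02 over all genes. Their median level in H0R was 4.90 against 6.67 over all genes, and differences of such low signals are compressed. VIPR1, which encodes a receptor of vasoactive intestinal peptide, read 9.06, 9.24 and 8.69 in H0R and 6.57, 6.45 and 6.24 in H3R, and so fell by 2.58 (SE 0.15, limma adjusted p = 3.02e-08). GRPR, which encodes the gastrin-releasing peptide receptor, read 9.16, 8.71 and 9.12 in H0R and 7.0, 6.98 and 6.97 in H3R, and fell by 2.01 (SE 0.18, limma adjusted p = 1.52e-06). Like NTSR1, both were brighter in H0R than in A0R, by 3.19 and 4.79, and neither was called in A549, at -0.07 and -0.12. Their changes differed between the lines (interaction of -2.51 and -1.89, limma adjusted p = 3.21e-06 and 0.000156), and 3 receptor genes were called lower and 0 higher in that comparison (7 called in all with the replicate block, 5 without A3R replicate 3), where 6.58% of all genes were lower and 5.22% higher. The other 2 receptor genes called in HTB56 were MC4R, at -0.45, and GLP2R, at 0.72. In A549 2 rose and 0 fell, 3.23% of the list against 1.75% of all genes, the bradykinin receptor genes BDKRB1 (1.03, SE 0.18, limma adjusted p = 0.00719) and BDKRB2 (0.81, adjusted p = 0.0116). BDKRB2 was no longer called when A0R replicate 1 or 2, or A3R replicate 2, was left out (limma adjusted p of 0.0652, 0.0648 and 0.0619). Between unselected lines 4 receptor genes were higher and 7 lower in H0R, where 24.9% and 20.3% of all genes were.

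**Figure D3:**
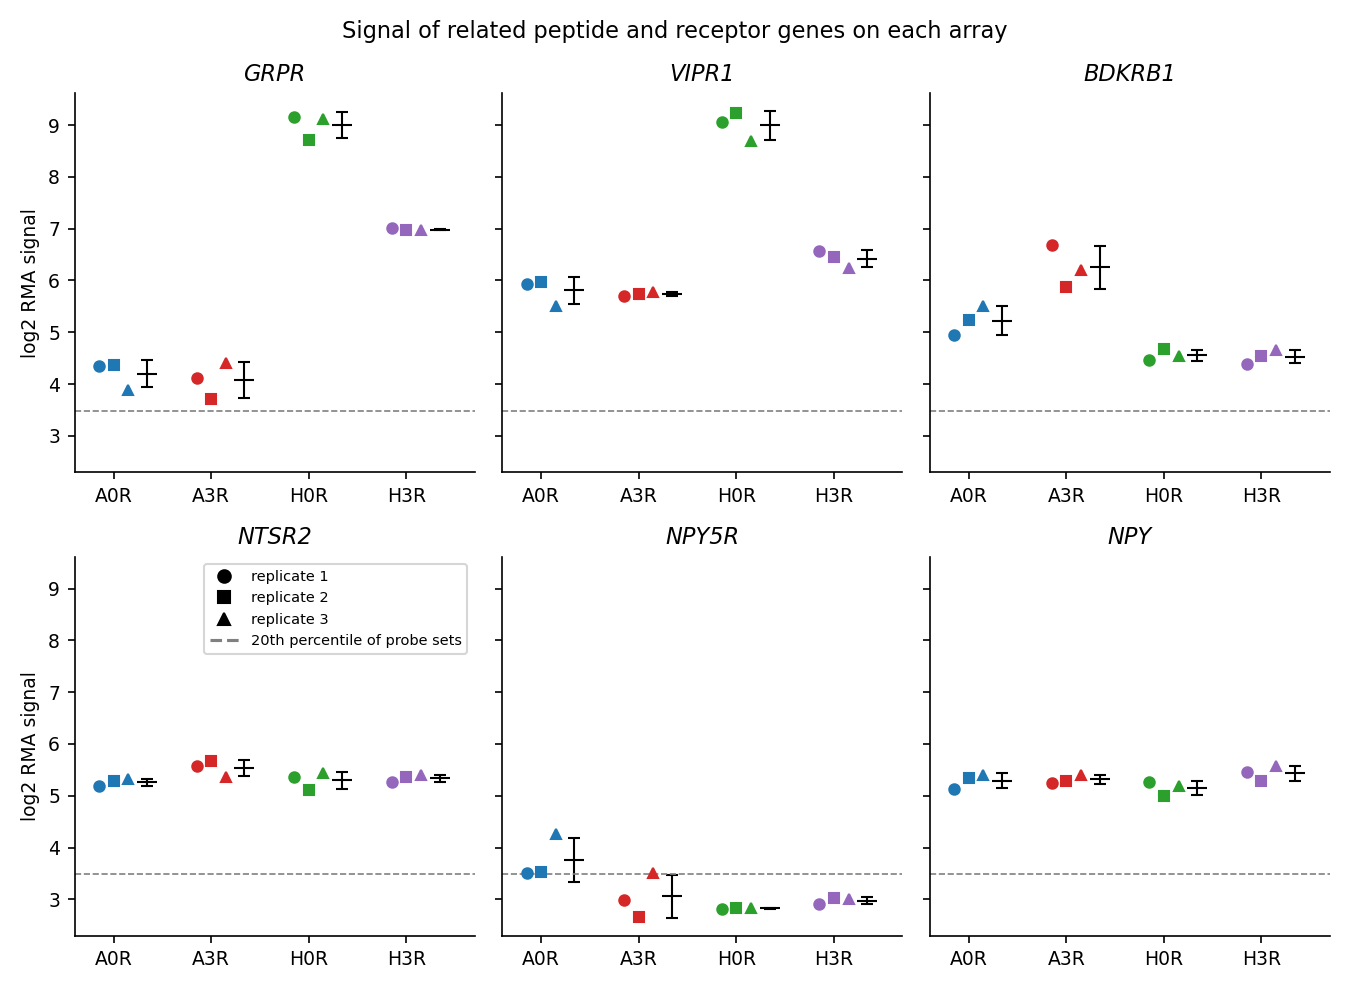
Log2 RMA signal (vertical axis) of 6 receptor and peptide genes on each array, by group (horizontal axis), drawn as for the members, with the group mean ± SD (n = 3) and the dim level of 3.48 as a dashed line. GRPR and VIPR1 drop from H0R to H3R as NTSR1 does, BDKRB1 is highest in A3R, and NTSR2 and NPY differ little between groups.

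Few precursors of other peptides were called. Their signals were low, where differences are compressed, at a median of 5.27 in A0R and 5.18 in H0R against 6.69 and 6.67 over all genes. Of 50 tested, limma called 0 in A549, where 1.75% of all genes were called, with 3 at an unadjusted p below 0.05. In HTB56 it called 1, 2.0% of the list against 19.5% of all genes, with 5 at that unadjusted level (2 called with the replicate block, 5 with array weights). That gene was ADM, the adrenomedullin gene, at -0.57 (limma adjusted p = 0.0491), a call lost under 9 of 21 alternatives, among them the lack of a filter on dim probe sets and the omission of A0R replicate 2, any A3R array, H0R replicate 1 or 2, or H3R replicate 2 or 3. In A549 the lowest of these 50 values was that of ADM, at -0.46, which was called only with the replicate block (limma adjusted p = 0.0393). NTS, at -4.20, was listed for its low A3R signal, so its place below them was set by that choice.

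Of the 41 G proteins, phospholipases, kinases and arrestins tested, 13 fell and 2 rose in HTB56, 36.6% of the list against 19.5% of all genes in either direction. GNAI1, a subunit of the inhibitory G protein through which NPY1R signals, fell by 1.35 (SE 0.11, limma adjusted p = 1.09e-06), and PRKCH, a protein kinase C gene, by 1.57 (SE 0.15, adjusted p = 4.47e-06). ARRB1, an arrestin gene, fell by 1.20. In A549 0 rose and 1 fell, ADCY3, an adenylyl cyclase gene, by 0.48, or 2.44% of the list against 1.75% of all genes. That call was lost in a fit of the 6 arrays compared and on leaving out A0R replicate 1, A0R replicate 3, A3R replicate 2 or A3R replicate 3 (limma adjusted p from 0.0577 to 0.146), and with the replicate block 4 were called. Of 28 genes induced through protein kinase C and ERK, 6 rose and 5 fell in HTB56, 39.3% of the list against 19.5% of all genes. Among them were EGR1 at 1.02 and ETV5 at -1.04, and the count was 7 without H0R replicate 2 and at a threshold of 0.01. This list, like that of the 41 genes above, was chosen with earlier results of these data known. Its median level was 7.67 in A0R and 8.26 in H0R, against 6.69 and 6.67 over all genes. In A549 4 rose and 1 fell, 17.9% of the list against 1.75% of all genes, a count of 8 with the replicate block. On leaving out A0R replicate 1, A0R replicate 2, A3R replicate 1, A3R replicate 3, H0R replicate 1, H3R replicate 1 or H3R replicate 2 it was 3, and without A3R replicate 2 it was 2. The calls of EREG, an EGFR ligand gene (0.57), and SPRED2, an ERK inhibitor gene (-0.43), were lost under 10 and 13 of 21 alternatives. CXCL8, a chemokine gene, rose by 1.48 in A549 and fell by 1.55 in HTB56, and PTGS2, a prostaglandin synthesis gene, rose by 0.85 and fell by 1.46. PTGS2 was no longer called in A549 when A0R replicate 1, A3R replicate 1 or A3R replicate 2 was left out (limma adjusted p of 0.0615, 0.0594 and 0.0649).

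Among 21 processing and degrading enzymes 3 rose and 0 fell in A549, and 2 rose and 2 fell in HTB56, 14.3% and 19.0% of the list. Of all genes 1.75% were called in A549 and 19.5% in HTB56. The A549 count was 1 without A3R replicate 1 and in a fit of the 6 arrays compared, and the HTB56 count was 7 with the replicate block or array weights. ECE1, a peptidase gene, was 0.68 higher in A3R (limma adjusted p = 0.00171), and FURIN, a convertase gene, 0.86 higher in H3R (adjusted p = 0.000692). At an unadjusted p below 0.05, 3 and 4 of 18 sorting receptor and sortilin-related genes differed in A549 and HTB56. By limma adjusted p 1 rose in A549 and 2 in HTB56, 5.56% and 11.1% of the list, and 0 fell in either line. In A549 this was BDNF, a neurotrophin gene that sortilin binds in its precursor form, at 0.84 (limma adjusted p = 0.0266), a call lost with array weights and without any A549 array but A3R replicate 2. The HTB56 genes were M6PR, at 0.46, and VPS29, a retromer gene, at 0.47, whose call was lost without H0R replicate 3 or H3R replicate 1 or 2, and the count was 4 with the replicate block. Of 17 AP-1, cAMP and glucocorticoid factors limma called 0 in A549, and 1 had an unadjusted p below 0.05. With 1.75% of all genes called there, 0 of 17 says little about them. Any part of these factors in the NTS difference was not tested. In HTB56 2 rose and 3 fell, 29.4% of the list against 19.5% of all genes. NR3C1, the glucocorticoid receptor gene, rose there by 0.74, and CREB1, a cAMP response factor gene, fell by 0.41. That count of 5 became 3 without H0R replicate 1 or 2 or H3R replicate 2, and 2 without H0R replicate 3 or H3R replicate 1. Over the 232 pathway genes tested 10 rose and 2 fell in A549, 5.17% against 1.75% of all genes. In HTB56 15 rose and 27 fell, 18.1% against 19.5% of all genes. The A549 count was 20 with the replicate number as a block, 6 without A0R replicate 1 or A3R replicate 2, and 7 without A0R replicate 2 or A3R replicate 1.

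**Figure D4:**
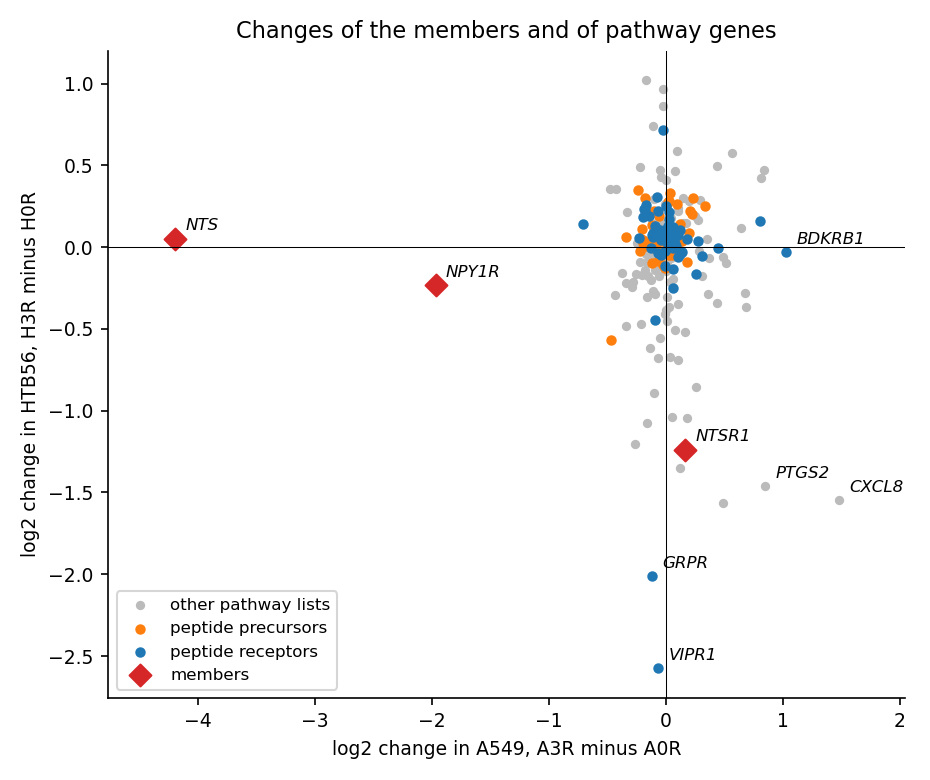
Log2 change after selection in A549 (horizontal axis) and HTB56 (vertical axis) of the members (diamonds), peptide receptor and precursor genes and the other pathway genes, 1 point per gene tested. NTS and NPY1R lie far left near the horizontal line, and NTSR1 lies below the centre at 0.16 and -1.24, with GRPR and VIPR1 further down.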

How the data were processed

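The deposited table holds log2 values for 33297 probe sets, which the authors produced by RMA; the submitters' processing notes name Affymetrix Expression Console, and no version was found. The method corrects background, makes the array distributions equal and summarises probes, so differences of dim genes are compressed. Of the probe sets 19460 had 1 gene symbol in the platform annotation. For each gene the probe set of highest mean over 12 arrays was used, if above the array 20th percentile on at least 3 arrays. The fit used limma 3.58.1 under R 4.3.3 (1 mean per group over all 12 arrays, eBayes, two-sided, Benjamini-Hochberg adjustment over 16939 genes, threshold 0.05), tested on simulated data, and drawn with Python 3.11.15 and matplotlib 3.10.9. The members, pathway lists and markers were chosen with earlier results of these data known.

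Genes were named by rule: the members, 8 fixed partners, up to 3 called genes per list, comparison and direction, the 5 most alike genes per member by Pearson r over the arrays, and the 3 nearest tested genes on each side. Not all genes so named are described. The groups share replicate numbers. Deviations from the group means correlated at 0.160 to 0.549 between arrays of the same number and at -0.417 to 0.204 between others, so the numbers pair the arrays, from the data alone. Promoters are from RefSeq, GRCh38.p14, found for 3 of 3 members tested. The number of arrays limits the precision. Alternatives covered the filter, the probe set rule, added normalization, the arrays fitted, the block, eBayes settings, weights, a threshold of 0.01 and each array left out.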

Additional observations from a re-analysis of the deposited data

Results flagged for a closer look

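The change after selection differed between the lines, by the limma interaction at an adjusted p below 0.05, for some partner genes. Of the 232 pathway genes tested 12.5% were called, near the share of all genes, 5.22% higher and 6.58% lower. The values are the HTB56 change minus the A549 change on the log2 scale: VIPR1 (-2.51), GRPR (-1.89), BDKRB1 (-1.06), ECE1 (-0.96), FURIN (0.88), GNAI1 (-1.48), ARRB1 (-0.94), PRKCH (-2.05), ITPR2 (-1.12), ADCY7 (0.99), CXCL8 (-3.02), PTGS2 (-2.31), EGR1 (1.19), ETV5 (-1.22) and NR3C1 (0.85). Between same-numbered arrays NTSR1 was higher in A3R in 3 of 3 pairs, once by 0.0011, and lower in H3R in 3 of 3. Its HTB56 change minus its A549 change was -1.40, and that difference was not tested.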

How the results depend on the processing

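The HTB56 fall of NTSR1 kept its direction and its call under all 22 alternatives, between -1.29 and -1.18, and with the replicate block its limma adjusted p was 1.97e-05. NPY1R in HTB56 stayed uncalled, between -0.31 and -0.10. NTS in HTB56 stayed uncalled too, and its sign turned with array weights (-0.0825), and it ran from -0.052 to 0.194 with 1 array left out. In A549 no alternative run moved a member by more than the SD between replicates pooled over A0R and A3R: NTS stayed between -4.52 and -3.87, NPY1R between -2.13 and -1.78 and NTSR1 between 0.08 and 0.29. Without A0R replicate 2, the array that stood apart, they were -4.39, -2.0 and 0.12. The 12 pathway genes called in A549 became 7 in a fit of the 6 arrays compared, 4 at a threshold of 0.01, 20 with the replicate block and 6 to 10 with 1 array left out. The 29 genes of the line interaction became 44 with the replicate block. The counts in HTB56 (42) and between unselected lines (90) stayed within 1.5 times under all alternatives run. The block changed no call of a member. Signals near the dim level limit what can be said of NTS and NPY1R outside A0R.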
